A study of Mus musculus with 12 samples.

Results

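The dependence of the LPS response on Arc is the difference between 2 differences: the change that LPS brought in Arc/Arg3.1 knockout dendritic cells, minus the change it brought in wildtype cells. It was computed for each gene with a mean log2 signal above 8 over the 12 arrays, which left 6440 of 22180 genes (29.0%), called members here. A positive value means that LPS moved the gene further up, or less far down, in knockout cells than in wildtype cells. The rule uses the mean signal over all arrays, LPS arrays included, so a gene that was low without LPS could pass through its LPS arrays.

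Bone marrow of mice aged 8 weeks, on a C57BL/6 background and labelled male, was grown for 7 days in medium with 20 ng/ml of GM-CSF. The cells that adhered loosely were collected as bone marrow-derived dendritic cells. The 4 groups, of 3 arrays each, were wildtype cells in medium, wildtype cells with LPS, Arc/Arg3.1 -/- cells in medium, and Arc/Arg3.1 -/- cells with LPS. LPS was given at 100 ng/ml for 30 min, the cells were washed, and both arms then stayed in medium for 1 h. Cultures made in this way hold other myeloid cells besides dendritic cells, and the genotype is given for the animal, not for a cell type. The titles call the arrays of every group biological replicates, those of untreated wildtype cells included. Whether the cultures of a group came from separate animals was not stated, so the p-values measure the spread between these samples, which may be technical.

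Lipopolysaccharide is a component of the outer wall of Gram-negative bacteria that is sensed by Toll-like receptor 4 (TLR4). The receptor signals through the adaptors MyD88 and TRIF to NF-kB, MAP kinases and interferon regulatory factors, which switch on immediate early transcription factors, cytokines, chemokines and, with a delay, interferon-stimulated genes. Arc is itself switched on as an immediate early gene. Its role was worked out chiefly in the synapse, where it takes part in the endocytosis of receptors and in the remodelling of actin; among immune cells it is known from migratory dendritic cells of the skin. The comparison asks whether the transcriptional response to LPS is the same without it.

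The promoters of 3 LPS-raised chemokine genes show the kind of sequence through which this pathway acts. The 250 bases before the start of each gene are printed 5′ to 3′ on the gene's strand, from RefSeq (GRCm38.p6), with matches to the NF-kB consensus, read on both strands, in capitals. They are Cxcl10 at chr5:92348890-92349139 (minus strand), Cxcl2 at chr5:90903649-90903898 (plus strand) and Cxcl1 at chr5:90890995-90891244 (plus strand).
Cxcl10: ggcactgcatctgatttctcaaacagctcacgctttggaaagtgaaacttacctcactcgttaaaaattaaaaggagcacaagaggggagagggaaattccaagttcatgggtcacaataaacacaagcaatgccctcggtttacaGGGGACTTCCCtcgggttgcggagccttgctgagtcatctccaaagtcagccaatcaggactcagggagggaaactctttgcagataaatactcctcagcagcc
Cxcl2: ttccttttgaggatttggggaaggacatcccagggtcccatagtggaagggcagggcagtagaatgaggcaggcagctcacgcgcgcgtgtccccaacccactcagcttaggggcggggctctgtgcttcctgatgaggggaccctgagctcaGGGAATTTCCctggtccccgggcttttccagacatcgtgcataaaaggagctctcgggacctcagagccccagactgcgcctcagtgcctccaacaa
Cxcl1: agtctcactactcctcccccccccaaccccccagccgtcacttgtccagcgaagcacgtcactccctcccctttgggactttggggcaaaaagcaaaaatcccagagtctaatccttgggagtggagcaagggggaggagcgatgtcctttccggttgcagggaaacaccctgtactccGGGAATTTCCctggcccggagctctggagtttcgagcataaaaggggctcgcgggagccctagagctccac
The match began 104 bases before the start in Cxcl10, 97 bases before it in Cxcl2 and 71 bases before it in Cxcl1. Of 27025 genes with a promoter in the table, 1533 (5.7%) had such a match in these 250 bases, against 24 of the 146 LPS-raised members with a promoter there (16.4%) and 356 of 4969 other members (7.2%). The AP-1 site TGANTCA, which reads the same on both strands, was in 16 of these 146 (11.0%), in 261 of the 4969 (5.3%) and in 7.8% of all genes. A match is a description of the letters, and the motifs were chosen after the promoters had been read.

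Some features of the arrays bear on every value. The 3 untreated wildtype arrays were nearly alike: the SD of the differences between any pair of them over the members was 0.105 to 0.108 log2 units, with 0 members past 2-fold, against 0.193 to 0.438 and 7 to 303 members for the pairs of arrays in the other groups. Their mean was therefore counted as 1 sample, against the titles, which gave 10 samples, and counts with 12 samples stand beside the main ones because the main counts rest on this choice. The median signal of an array was 6.50 to 6.67, and that of its probe sets without a gene 5.89 to 6.10. All 12 arrays are labelled male, but 9 carried Xist at 11.22 to 11.92 with Y-linked genes at 3.99 to 4.58, and only replicate 2 of both knockout groups and replicate 1 of wildtype LPS carried Y-linked signal (8.83 to 9.24) with Xist at 5.63 to 5.76. Replicates 2 and 3 of both LPS groups had a low median signal of 94 small RNA genes, 9.45 to 9.57 against 10.21 to 10.77 on the other arrays. Both genotypes had the same number of such LPS arrays.

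The cells carried the markers of dendritic cells in every group. The summed level of 13 markers of conventional dendritic cells was 15.09 to 15.12 log2 units in untreated wildtype cells, 15.15 to 15.23 after LPS, 15.10 to 15.18 in untreated knockout cells and 15.15 to 15.26 after LPS. This sum leans on the genes of highest signal, such as H2-Ab1 (13.37 to 13.55). The median level of the 13 was 10.70 to 10.78 in untreated wildtype cells and 9.79 to 10.69 after LPS. In knockout cells it was 10.34 to 10.61 and then 10.11 to 10.25. Single markers moved either way: in wildtype cells the mean of Flt3 went from 8.35 to 7.94 and that of Zbtb46 from 8.56 to 9.44. Macrophage, monocyte and neutrophil genes were present too. The summed level of 14 macrophage genes was 14.43 to 14.51 in untreated wildtype cells and 13.91 to 14.13 after LPS. In knockout cells it was 14.36 to 14.55 and then 13.46 to 14.22. The summed level of 18 neutrophil genes went from 13.53 to 13.56 down to 12.03 to 12.90 with LPS in wildtype cells and from 13.25 to 13.56 down to 12.35 to 12.60 in knockout cells, and 9 monocyte genes went from 13.01 to 13.09 down to 11.60 to 12.25 and from 12.89 to 13.12 down to 11.34 to 12.02. In such mixed cultures, fewer cells of a type and less RNA per cell cannot be told apart.

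Arc was checked first. Its probe set read 9.47, 9.24 and 9.46 in untreated wildtype cells, 9.39, 9.21 and 9.62 after LPS, 7.81, 7.88 and 8.05 in untreated knockout cells and 8.03, 7.68 and 8.02 after LPS. The knockout arrays lay below all wildtype arrays, by 1.48 log2 units without LPS and by 1.50 with it. The LPS effect on it was 0.01 in wildtype and -0.01 in knockout cells, and the difference of differences was -0.02 (95% interval -0.56 to 0.52). The part of the transcript under the probes was not given in the sources used here.

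In the fit of 10 samples, nearly all genes called for LPS in wildtype cells were called in knockout cells too, while with 12 samples many were not. In wildtype cells 266 members passed the test for LPS, against a background of 1.57% of all genes; 249 of them rose (1.34% of all genes) and 17 fell (0.234%). In knockout cells 787 members did (5.91% of all genes), of which 460 rose (2.98%) and 327 fell (2.93%). For the mean LPS effect of both genotypes the count was 904 (6.22%). Both genotypes called 263 of these members, in the same direction, which is 98.9% of the wildtype calls and 33.4% of the knockout calls; over all genes it was 321, or 92.0% and 24.5%. The wildtype contrast leaned on 1 averaged untreated sample and so had the larger error. With 12 samples the counts were 1059 in wildtype cells (8.64% of all genes) and 1187 in knockout cells (9.11%), with 692 in both. Over all genes 1002 were called in both, which is 52.3% of the wildtype calls and 49.6% of the knockout calls.

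A gene called in 1 genotype only was not thereby shown to differ. Only in knockout cells, 524 members were called, of 990 genes in all. Of the 524, 0 passed limma's test of the difference itself and 14 reached an unadjusted p under 0.05; 520 of them moved the same way in both genotypes, with a median of -0.19 in wildtype and -0.47 in knockout cells. In wildtype cells alone 3 members were called, of 28 genes in all: Napa, an adaptor for membrane fusion, Slc1a4, a transporter of neutral amino acids, and the zinc finger gene Zfp972. With 12 samples, 367 members were called in wildtype cells only and 495 in knockout cells only, of 915 and 1019 genes in all.

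The test of the difference called no gene in the fit of 10 samples and a few with other fits. In limma's fit of 10 samples, 0 of 22180 genes (0%) and 0 of 6440 members had an adjusted p under 0.05, and the smallest adjusted p of a member was 0.397. At an unadjusted p under 0.05 there were 982 genes (4.43%) and 71 members (1.1%), of which 27 were higher (3.45% of all genes) and 44 lower (0.978%) in knockout cells. With 12 samples, 55 genes passed (0.248%), all of them higher, and 4 of these were members: Zfp972, Mir761, Btbd35f1 and Sfi1. Arrays of equal replicate number deviated together in the 3 groups other than untreated wildtype. A block for that number gave 9 genes and 0 members with 10 samples, 112 and 12 with 12 samples, and 122 and 15 with 12 samples and a block within each genotype. The block within genotype also pairs untreated and LPS wildtype arrays, whose deviations did not go together (r of -0.028, 0.009 and -0.017). Replicate 1 of wildtype cells carried Y-linked signal with LPS and not without it, so that pairing was not borne out. The block on 10 samples also raised the members called for LPS to 450 in wildtype and 1343 in knockout cells. Without the 3 arrays with Y-linked signal the counts were 6 genes and 0 members with the untreated wildtype arrays averaged, and 156 genes and 13 members with them apart.

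**Figure D1:**
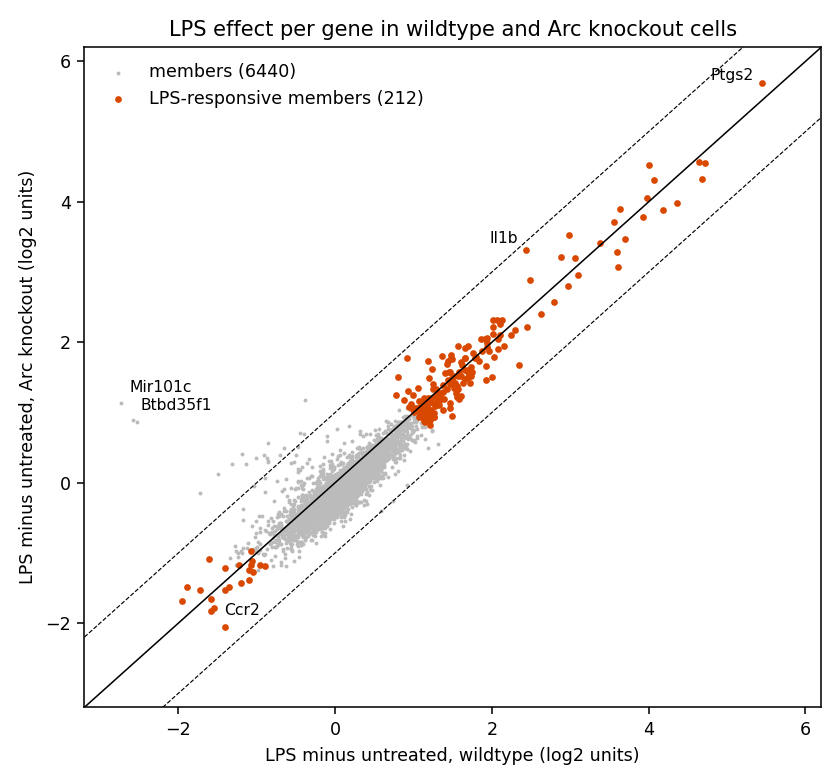
LPS effect (log2 signal with LPS minus untreated) in wildtype cells on the x axis and in Arc knockout cells on the y axis, 1 point per gene, for 6440 members and, in orange, the 212 that responded to LPS. The solid line marks equal effects and the dashed lines a 2-fold difference; the orange points all lie between the dashed lines, and the points farthest above them are Mir101c and Btbd35f1.

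The size of difference that these data could exclude was limited for single genes. The 95% interval of the difference of differences had a median half-width of 0.50 log2 units, and in 5630 members (87.4%) it lay within 2-fold in both directions, while in 1635 (25.4%) it lay within 1.5-fold. The members' values reached 3.87, with no negative value past 2-fold, and had a median of -0.17, against -0.06 over all genes, and 87.8% of members were negative against 58.6% of all genes. Members stood at a median LPS effect of 0.06 in wildtype and -0.12 in knockout cells. The members' median difference of differences moved to -0.02 after quantile normalization and to -0.28 without the arrays of low small RNA signal. Lists are therefore set beside the median of all members. Just above the signal limit stood Mansc1 (-0.33), Akap7 (0.07) and Hmgxb3 (-0.17), and just below it Inpp5f (-0.33), Tars2 (-0.33) and Ruvbl2 (-0.13).

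The genes that LPS moved most carry the comparison. Members with an adjusted p under 0.05 and at least a 2-fold change in the mean LPS effect of both genotypes numbered 212, of which 191 were raised and 21 lowered; 1.32% of all genes met this rule. All 212 moved the same way in both genotypes. Their difference of differences ran from -0.67 to 0.88 with a median of -0.07, and for 149 (70.3%) the interval lay within 2-fold. In limma's fits 0 of the 212 passed the test with 10 samples or with 12, and 1 and 8 reached an unadjusted p under 0.05 (4.43% and 10.6% of all genes). Across these genes the wildtype and knockout effects had a Pearson r of 0.98, and across all members 0.91; genes are not independent replicates, and the 212 were chosen for a large mean effect.

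The strongest genes rose in both genotypes by sizes that differed in either direction. Among the 191 raised members the knockout rise was a median of 95.4% of the wildtype rise on the log2 scale (5th to 95th percentile 75.0% to 126.7%), larger in knockout cells for 69 and in wildtype cells for 122. This lean depends on the scaling: their median difference of -0.07 turned to 0.06 after quantile normalization, and to 0.01 without LPS knockout replicate 1. In 190 of the 191 every LPS array lay above every untreated array in both genotypes, and in 183 the LPS arrays of the genotypes overlapped. The 191 were picked for a rise on these same arrays, so the first count was largely set by the choice. Neither count was taken over all genes. The 38 members raised at least 4-fold split evenly, 19 positive and 19 negative, and in 19 the interval lay within 2-fold.

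The untreated level limits what these differences say. Of the 191 raised members, 121 had an untreated mean above 8 in both genotypes, and 102 of these (84.3%) had an interval within 2-fold; of the other 70, 36 did (51.4%). Among the 38 raised at least 4-fold only 13 had such an untreated level. An untreated signal near the array medians was not shown to lie above background. Where a raised gene's untreated mean was below 8 in either genotype, its rise is therefore given as a difference of log2 signals and not as a fold. An interval for such a gene bounds the difference in signal and not the difference in RNA.

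Ptgs2, the inducible cyclooxygenase that makes prostaglandins, had the largest rise in signal. Its signal was 6.64, 6.92 and 6.79 in untreated wildtype cells and 12.24, 12.06 and 12.36 after LPS, and 7.67, 6.44 and 6.27 in untreated knockout cells and 12.37, 12.59 and 12.49 after LPS. The LPS arrays lay far above the untreated ones in both genotypes, and the untreated knockout replicate 1 stood above the other untreated arrays. Every knockout LPS array lay above every wildtype LPS array, the closest at 12.37 against 12.36. The signal rose by 5.44 log2 units in wildtype cells (adjusted p = 0.000149) and by 5.69 in knockout cells (adjusted p = 3.06e-06), from levels near the array medians on 5 of 6 arrays; the difference was 0.25 (95% interval -0.86 to 1.37). Acod1, which makes itaconate from the citric acid cycle, read 7.19, 7.24 and 6.98 and then 10.55, 11.85 and 11.55 in wildtype cells, and 7.59, 7.02 and 7.40 and then 10.22, 11.91 and 11.54 in knockout cells. Replicate 1 was the lowest LPS array in both genotypes, and the difference was -0.29 (-1.89 to 1.31).

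Of 17 members among cytokines and growth factors, 10 rose in wildtype cells, and 12 rose and 1 fell in knockout cells (1.34%, 2.98% and 2.93% of all genes), with a median difference of -0.02. Tnf, an early mediator of inflammation, read 8.69, 8.83 and 8.63 untreated and 12.88, 13.28 and 13.09 after LPS in wildtype cells, and 9.24, 9.42 and 8.39 untreated and 12.56, 13.33 and 13.16 after LPS in knockout cells. It rose 20.6-fold and 15.9-fold, and the LPS arrays of the genotypes overlapped. Il1a, which encodes interleukin-1 alpha, rose by 4.68 and 4.32 log2 units (difference -0.36, 95% interval -1.43 to 0.70). Il23a, a subunit of interleukin-23, had the tightest values of these: 6.05, 6.58 and 6.35 to 10.62, 10.29 and 10.29 in wildtype cells, and 6.38, 6.38 and 6.40 to 10.56, 10.75 and 10.77 in knockout cells. Its difference in signal was 0.24 (-0.22 to 0.69), but its untreated arrays lay at or below the array medians, so the narrow interval sets no limit on a dependence of its RNA.

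Il1b, which encodes interleukin-1 beta, had the largest positive difference among the responsive genes. It read 10.43, 10.48 and 10.48 in untreated wildtype cells and 12.82, 12.88 and 13.02 after LPS, and 10.58, 9.15 and 9.52 in untreated knockout cells and 13.07, 13.10 and 13.05 after LPS. The knockout LPS arrays lay just above the wildtype ones, and replicates 2 and 3 of untreated knockout cells lay below all wildtype arrays: knockout minus wildtype was -0.72 without LPS and 0.17 with it. The difference of differences was 0.88 (95% interval -0.18 to 1.95, unadjusted p = 0.0955, adjusted p = 0.948). Plat, the tissue plasminogen activator, was the single responsive gene with an unadjusted p under 0.05. Its signal was 7.89, 7.75 and 8.06 and then 8.79, 8.55 and 9.09 in wildtype cells, and 7.91, 7.28 and 7.60 and then 9.43, 9.01 and 9.69 in knockout cells, with overlap between the genotypes on both sides. Its difference was 0.87 (0.07 to 1.67; unadjusted p = 0.0359, adjusted p = 0.948).

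Of 14 members among inflammatory enzymes and receptors, 9 rose in wildtype and 11 in knockout cells (against 1.34% and 2.98% of all genes), with a median difference of 0.02.

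Of 12 members among chemokine genes, whose products call neutrophils, monocytes and T cells to the site, 6 rose in wildtype and 6 in knockout cells (against 1.34% and 2.98% of all genes), and the median difference was -0.07. Cxcl10 read 6.76, 6.73 and 6.55 untreated and 10.89, 11.59 and 11.47 after LPS in wildtype cells, and 7.20, 6.78 and 6.53 untreated and 10.75, 11.80 and 11.65 after LPS in knockout cells. Replicate 1 was again the lowest LPS array of each genotype. The signal rose by 4.64 and 4.57 log2 units from near the array medians (difference -0.07, 95% interval -1.16 to 1.02). Cxcl2 rose in both genotypes too (difference 0.52, -0.66 to 1.70), and its untreated knockout arrays were spread from 6.34 to 7.75. Cxcl1, with its promoter match at 71 bases, read 7.37, 6.79 and 6.98 and then 10.32, 9.73 and 10.03 in wildtype cells, and 6.99, 6.39 and 6.99 and then 10.39, 10.19 and 10.39 in knockout cells. It rose by 2.98 and 3.53 log2 units, a difference of 0.55 (-0.16 to 1.27), and the groups overlapped on both sides.

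**Figure D2:**
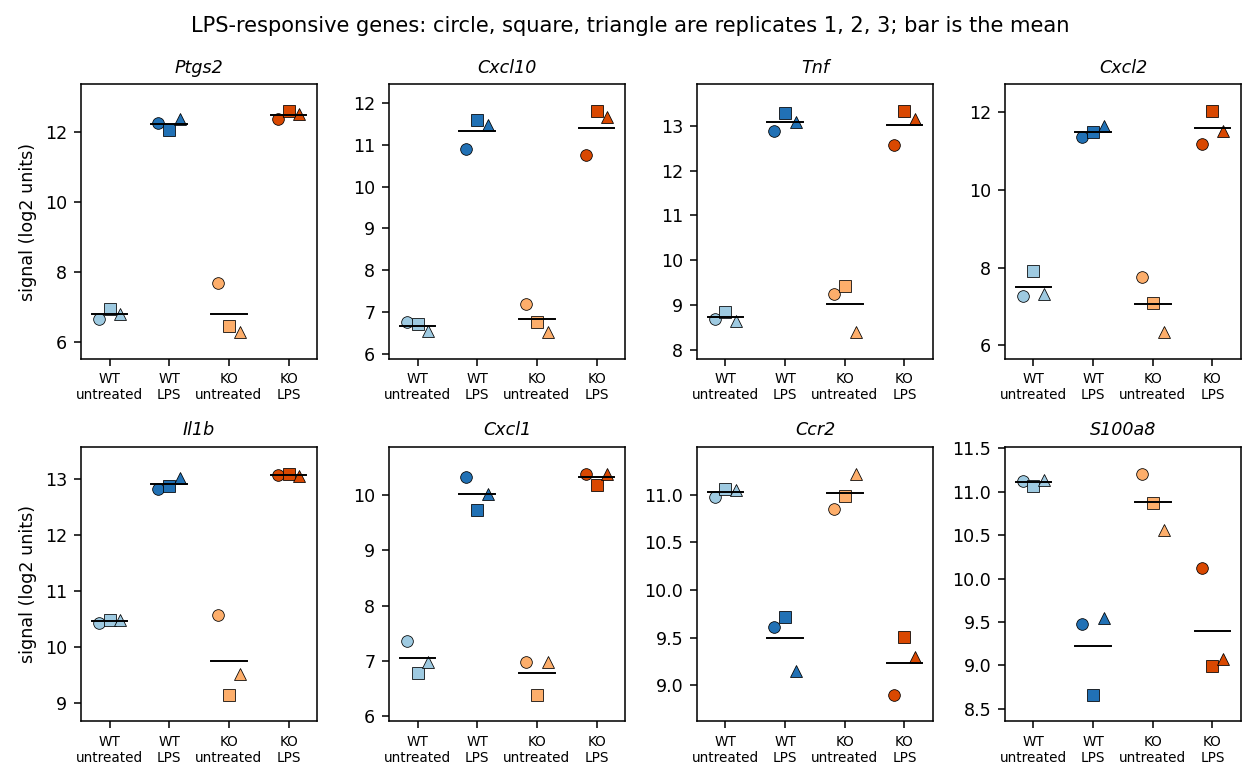
Log2 signal of 8 LPS-responsive genes on each of the 12 arrays, by group on the x axis; circle, square and triangle are replicates 1, 2 and 3 and the bar is the group mean. The LPS arrays stand above the untreated ones for the first 6 genes and below them for Ccr2 and S100a8, in both genotypes. For Ptgs2 and Il1b every knockout LPS array lies above every wildtype LPS array. Untreated knockout arrays of Il1b include 9.15 and 9.52, under the wildtype values.

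Transcription factors and signalling genes showed no called dependence either in the fits of 10 and of 12 samples without a block. Nfkbiz, an atypical IkB protein that NF-kB induces and that drives secondary genes, read 8.04, 8.01 and 7.81 and then 11.86, 11.98 and 11.96 in wildtype cells, and 8.29, 7.56 and 7.95 and then 11.78, 12.11 and 12.08 in knockout cells. It rose by 3.98 and 4.06 log2 units (difference 0.07, 95% interval -0.58 to 0.73), with overlap at both levels. Of the 10 NF-kB and IkB members 5 rose in each genotype (against 1.34% and 2.98% of all genes), and all 10 intervals lay within 2-fold, as did 82.9% of those of all genes. Nfkbie, which holds NF-kB in the cytoplasm, rose by 1.13 and 0.91 log2 units.

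Of 21 members among immediate early transcription factors, 10 rose in wildtype and 14 in knockout cells (against 1.34% and 2.98% of all genes), with a median difference of -0.02. Fos, a subunit of AP-1, read 7.78, 7.62 and 7.89 and then 9.12, 8.59 and 9.14 in wildtype cells, and 7.14, 7.05 and 6.57 and then 8.67, 8.69 and 8.60 in knockout cells. It was lower on every untreated knockout array than on every untreated wildtype array; it rose by 1.19 and 1.73 log2 units, a difference of 0.54 (-0.14 to 1.22). Jund, another AP-1 subunit, had the lowest value of the list, -0.50 (-1.10 to 0.11).

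Of the 17 members among TLR4, its adaptors and kinases, 2 rose in wildtype and 6 in knockout cells (against 1.34% and 2.98% of all genes), with differences from -0.28 (Irak1, a kinase below MyD88) to 0.27. Feedback inhibitors, which end the response, numbered 21, of which 9 and 12 rose, read against the same shares; Dusp5, a phosphatase of ERK, rose by 1.14 and 0.93 log2 units, and Tnip2, a binding partner of A20, had the smallest p of the list at a difference of -0.32 (-0.74 to 0.11).

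Interferon-stimulated and maturation genes had no called difference in the fits of 10 and of 12 samples without a block. Ifit1, an interferon-induced protein that binds foreign RNA, read 7.27, 6.75 and 7.17 and then 9.72, 9.57 and 9.34 in wildtype cells, and 6.99 to 7.06 and then 9.61, 9.86 and 10.21 in knockout cells. It rose by 2.48 and 2.88 log2 units, a difference of 0.40 (-0.20 to 0.99). Cd40, the receptor through which T cells license dendritic cells, rose 4.37-fold and 4.96-fold (0.18, -0.35 to 0.71). All 22 dendritic cell maturation members had intervals within 2-fold, and 4 rose in wildtype and 7 in knockout cells (against 1.34% and 2.98% of all genes); of 15 interferon members 4 and 5 rose, with a median difference of -0.09.

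Further raised genes had intervals that include 0. Serpinb2, an inhibitor of plasminogen activators, rose by 3.93 and 3.78 log2 units (difference -0.15, -1.02 to 0.71). Rasgef1b, a Ras-family exchange factor that LPS is known to induce, rose by 4.72 and 4.55 log2 units (-0.17, -1.05 to 0.72). Phlda1, a pleckstrin homology-domain protein, had the lowest value among the responsive genes: it read 7.15, 7.07 and 6.80, then 9.15, 9.40 and 9.48 in wildtype cells, and 7.16, 7.74 and 7.24, then 8.66, 9.46 and 9.02 in knockout cells. The knockout arrays were higher without LPS and mostly lower with it, with overlap at the upper level, and the difference was -0.67 (-1.47 to 0.14).

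**Figure D3:**
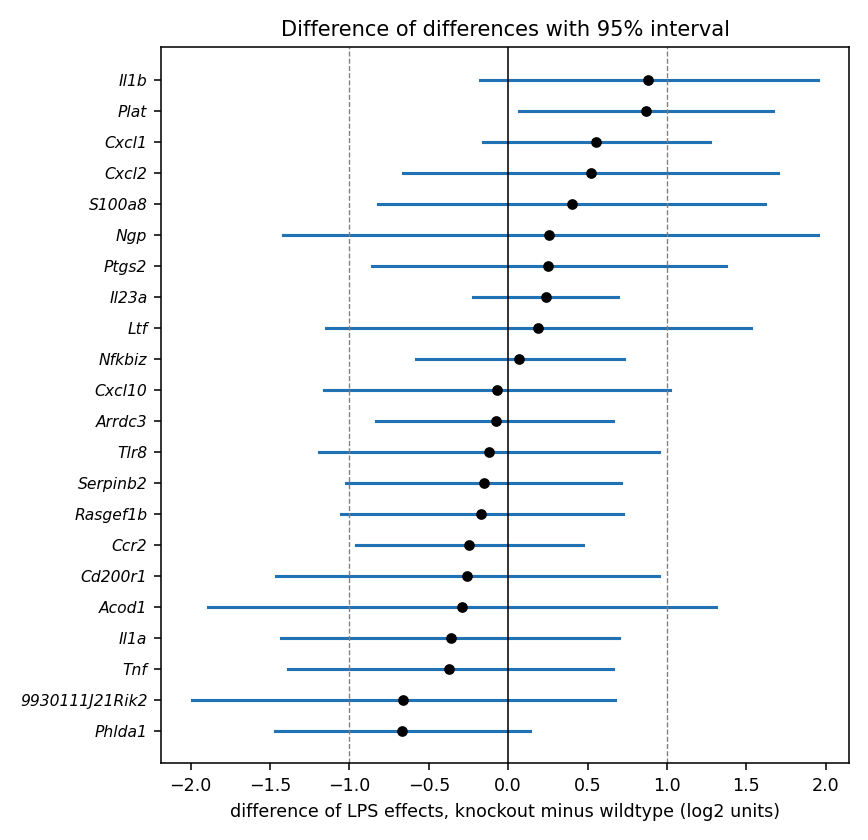
Difference of LPS effects, knockout minus wildtype in log2 units (x axis), with its 95% interval, for the 10 most raised and 8 most lowered LPS-responsive members and for Il1b, Cxcl1, Plat and Phlda1. The dashed lines mark 2-fold; every interval but that of Plat (0.07 to 1.67) includes 0, and several reach past 2-fold.

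The genes that LPS lowered included several of monocytes and neutrophils. Ccr2, the receptor that draws inflammatory monocytes from bone marrow, read 10.97, 11.06 and 11.05 and then 9.61, 9.72 and 9.15 in wildtype cells, and 10.85, 10.98 and 11.22 and then 8.90, 9.51 and 9.30 in knockout cells. It fell in both (adjusted p = 0.0171 and 0.000328), 2.90-fold and 3.44-fold, and the difference was -0.25 (-0.96 to 0.47). S100a8, a subunit of calprotectin in neutrophils and monocytes, read 11.12, 11.07 and 11.14 and then 9.47, 8.66 and 9.54 in wildtype cells, and 11.21, 10.87 and 10.56 and then 10.12, 8.99 and 9.07 in knockout cells. It passed the test in knockout cells (adjusted p = 0.021) and not in wildtype cells (adjusted p = 0.0759), while the difference itself was 0.40 (-0.82 to 1.62).

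Ngp and Ltf, granule proteins of neutrophils, were 1.96 and 1.72 log2 units lower with LPS in wildtype cells without passing the test there, and fell by 1.69 and 1.53 in knockout cells. All 8 neutrophil members had a positive difference, with a median of 0.24 and a range of 0.03 to 0.52; 0 passed limma's test with 10 or with 12 samples, and 0 reached an unadjusted p under 0.05 with 10. Only 8 of 18 listed neutrophil genes were above the signal limit, and the summed levels given above overlapped between the genotypes. The part of cell composition in these values was not tested.

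Receptor genes were among those lowered. Tlr8, which senses RNA in endosomes, was 1.41 log2 units lower with LPS in wildtype cells and fell by 1.53 in knockout cells (difference -0.12, -1.19 to 0.95). Cd200r1, an inhibitory receptor of myeloid cells, was 1.58 lower and fell by 1.83 (-0.26, -1.46 to 0.95). Arrdc3, an arrestin-domain adaptor, fell in both genotypes, by 1.58 and 1.66 log2 units (-0.08, -0.83 to 0.66). Of 22 members among C-type lectins and immune receptors, 1 rose and 1 fell in wildtype cells, against 1.34% and 0.234% of all genes. In knockout cells 3 rose and 6 fell, against 2.98% and 2.93%. With 22 genes, a single call is already a larger share than any of these. The median difference was -0.06. Of 6 chemokine receptor members, 1 rose in each genotype: Ccrl2, a non-signalling receptor, rose by 2.79 and 2.57 log2 units (-0.22, -0.82 to 0.37).

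Genes of stress and metabolism were also compared. All 14 heat shock members were negative, with a median of -0.19, near the median of all members (-0.17), of which 87.8% were negative. Hspa1a, an inducible Hsp70 chaperone, read 6.55, 6.09 and 6.54, then 9.63, 9.93 and 10.45 in wildtype cells, and 7.05, 6.27 and 6.29, then 9.45, 9.74 and 9.63 in knockout cells. Both genotypes overlapped on both sides, and it rose by 3.61 and 3.07 log2 units from untreated signals that reached down to 6.09 (difference -0.54, -1.45 to 0.37). The 13 glycolysis members had a median of -0.13, and 1 rose in each genotype. The 16 adhesion and integrin members had a median of -0.07, with 3 higher in wildtype and 4 in knockout cells. Over all genes 1.34% and 2.98% rose.

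Genes tied to what Arc is known for gave no called dependence in the fits of 10 and of 12 samples without a block. Of 58 members of actin dynamics, 53 were negative and the median was -0.10, with 0 called in wildtype cells and 1 in each direction in knockout cells, no more than the 2.98% and 2.93% of all genes; 52 intervals lay within 2-fold, as did 82.9% of those of all genes. Limk1, the kinase that inactivates cofilin, stood at -0.30 (-0.70 to 0.11). All 25 partners of Arc and endocytosis genes were negative, with a median of -0.14, and all 25 intervals lay within 2-fold. Dnm2, the dynamin that cuts vesicles from the membrane, stood at -0.27 (-0.70 to 0.16). These medians lie nearer 0 than that of all members (-0.17), and 14 housekeeping genes had a median of -0.09, with 12 of them negative.

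Cell cycle genes had the lowest median of the lists. Their 15 members stood at -0.40, with 14 negative, from -0.71 (Ccnb2, a mitotic cyclin) to 0.04 (Mki67, a marker of dividing cells). Their intervals were wide, 2 of 15 within 2-fold, and 0 members passed limma's test or reached an unadjusted p under 0.05. The median level of all 28 measured genes of the list, members or not, was highest on replicate 2 of each group other than untreated wildtype. That replicate read 8.65 in untreated knockout cells, 8.61 in knockout cells with LPS and 8.53 in wildtype cells with LPS. The other arrays of those groups read 7.31 to 8.03. Within each of these groups the highest and lowest array were farther apart in this level than the median difference of the 15 members, a smaller set of genes.

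**Figure D4:**
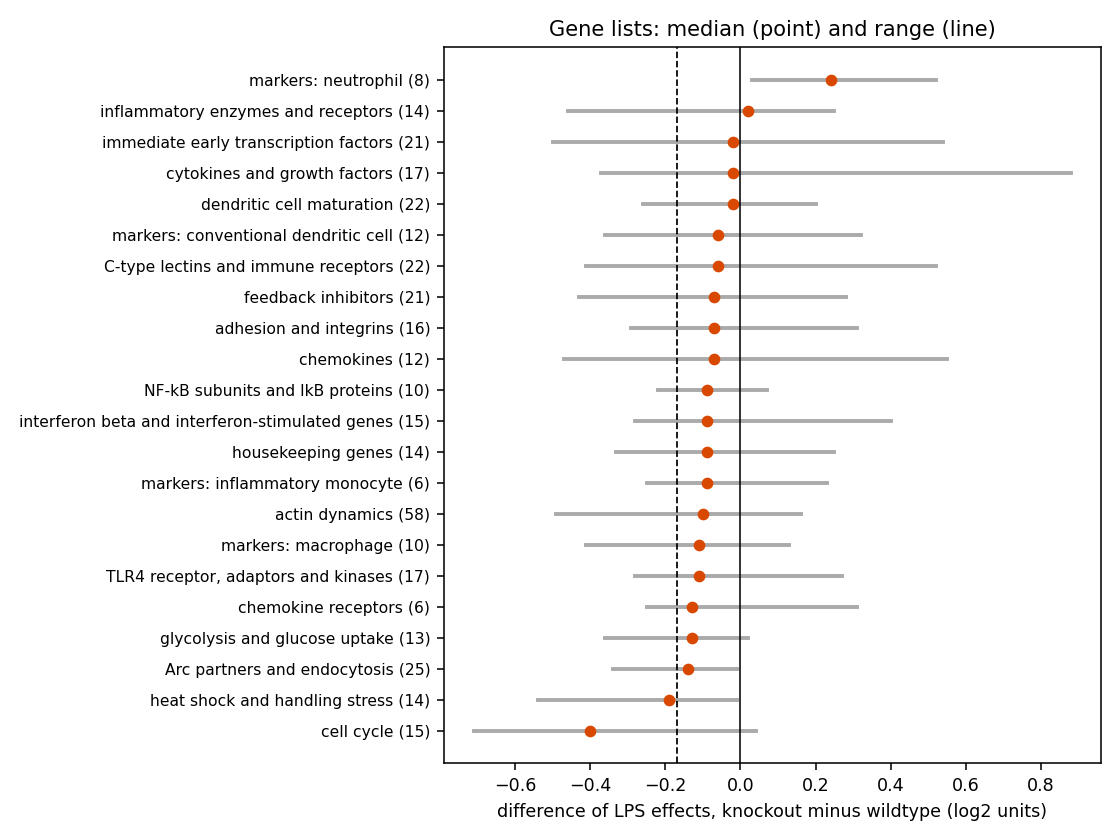
Median (point) and range (line) of the difference of LPS effects, knockout minus wildtype in log2 units, for each gene list with at least 5 members, the number of members in brackets. The dashed line is the median of all members, -0.17; most lists lie between it and 0, with cell cycle genes at -0.40 and neutrophil genes at 0.24.

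The largest differences were of genes that did not meet the rule for an LPS response. There were 19 members at or past 2-fold (0.295% of members, against 1.2% of all genes), all positive, and 11 were small RNA genes or predicted or Riken genes. The rule takes the mean of both genotypes, in which opposite changes cancel; in single genotypes Zfp972 fell with LPS in wildtype cells and Mir680-1 rose in knockout cells (1.18, adjusted p = 0.0276), and the other 17 passed in neither. The untreated wildtype group was the highest in 18 of them, and in 7 each of its arrays lay above all 9 others. The same held over all genes: of 267 at or past 2-fold, 255 were positive, untreated wildtype was the highest group in 240, and in 94 its arrays lay above all others. These are the arrays that were counted as 1 sample. A positive difference by its form favours untreated wildtype or knockout LPS as the highest group, so the order is partly set by how the genes were picked.

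Among these were 6 microRNA genes, whose names stand for short RNAs that silence messenger RNAs through their seed, bases 2 to 8. Mature sequences were in the RefSeq table (GRCm38.p6) for 4 of them, printed 5′ to 3′ with the seed in capitals to show that Mir680-1 and Mir680-2 give the same microRNA and that the others share no seed with it.
Mir101c (mmu-miR-101c): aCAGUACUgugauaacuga
Mir680-1 (mmu-miR-680): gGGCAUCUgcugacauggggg
Mir761 (mmu-miR-761): gCAGCAGGgugaaacugacaca
Mir680-2 (mmu-miR-680): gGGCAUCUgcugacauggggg
The signal of a microRNA gene on these arrays does not separate the mature RNA from its precursor or host transcript.

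Mir761, on chromosome 4, read 10.17, 9.95 and 10.19 in untreated wildtype cells, 9.02, 8.91 and 8.97 after LPS, 9.18, 8.59 and 8.93 in untreated knockout cells and 9.52, 8.98 and 8.96 after LPS. The untreated wildtype arrays stood above all others, and the other groups overlapped. The difference was 1.39 (0.71 to 2.08). Mir101c had the largest value of all members, 3.87 (1.46 to 6.28): it read 11.07, 11.03 and 10.85, then 9.58, 8.02 and 7.16 in wildtype cells, and 9.07, 8.16 and 8.31, then 10.80, 8.45 and 9.69 in knockout cells. Replicate 1 was the highest array in each of the 3 other groups.

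Zfp972, a predicted zinc finger protein on chromosome 2, had the smallest p of the members. It read 8.37, 8.34 and 8.52 in untreated wildtype cells and 7.50, 7.57 and 7.55 after LPS, and 7.91, 7.76 and 8.10 in untreated knockout cells and 8.48, 8.04 and 8.29 after LPS. It was lower after LPS on every wildtype array, while the knockout groups overlapped by a little, with the highest untreated array above the lowest LPS array. The difference was 1.22 (0.71 to 1.72; adjusted p = 0.397 with 10 samples and 0.0351 with 12). Over 38 other settings it lay between 1.11 and 1.46, and it passed the test in 9 of them.

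Sfi1, a centrin-binding protein of centrosomes on chromosome 11, read 8.71, 8.69 and 8.60, then 7.61, 7.70 and 7.96 in wildtype cells, and 8.02, 7.50 and 7.82, then 8.53, 7.90 and 8.08 in knockout cells. Only the untreated wildtype arrays were apart from the rest (difference 1.30, 0.60 to 2.00; adjusted p = 0.557 with 10 samples and 0.0493 with 12). Btbd35f1, a member of a BTB-domain family on the X chromosome, read 10.40, 10.29 and 10.23, then 7.89, 7.81 and 7.49 in wildtype cells, and 8.81, 7.71 and 8.29, then 10.21, 7.85 and 9.43 in knockout cells. Within the knockout groups replicate 1 was highest and replicate 2 lowest, and the difference was 3.47 (1.62 to 5.31; adjusted p = 0.551 with 10 samples and 0.0490 with 12).

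Both genes with many close copies and genes of other tissues were among the named ones, such as the defensin Defa34 (0.84), the olfactory receptor genes Olfr988 (1.15) and Olfr1373 (0.82), the vomeronasal receptor gene Vmn1r159 (1.14) and the secretoglobin Scgb1b3 (0.89). AY358078 (1.57), Csprs (0.98) and Selenbp1 (0.76), a selenium-binding protein, were also higher in untreated wildtype cells than in the other groups. Probe sets of such families can share signal between copies. Xist, the RNA that silences an X chromosome, also passed 2-fold (1.57) with an interval of -6.55 to 9.70, and 1 of 3 arrays had it at background in each group but untreated wildtype. Unc93a2 differed from these in its pattern: 8.25, 8.21 and 8.30, then 8.31, 8.14 and 8.35 in wildtype cells, and 7.89, 7.67 and 7.53, then 8.58, 8.51 and 8.27 in knockout cells. It rose in knockout cells (0.76, adjusted p = 0.00635) and stood at 0.02 in wildtype cells, a difference of 0.75 (0.25 to 1.24; adjusted p = 0.686).

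**Figure D5:**
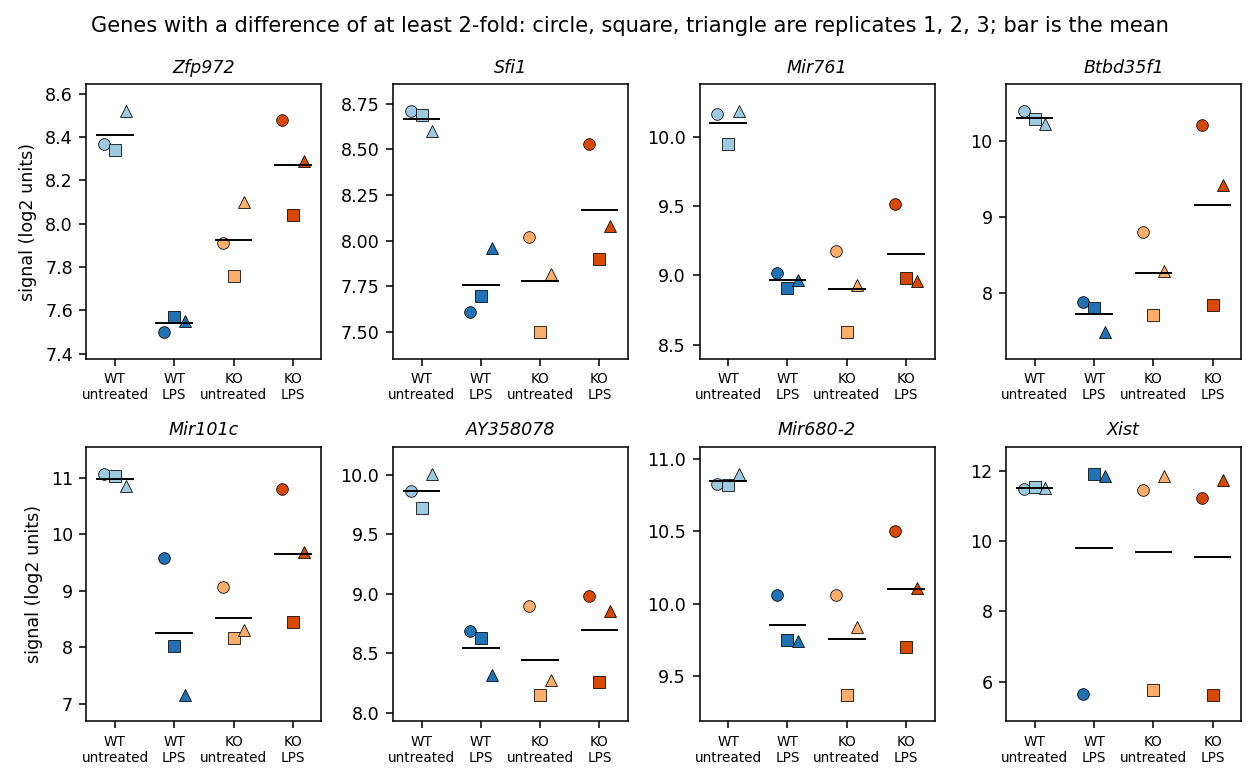
Log2 signal of 8 members with a difference of at least 2-fold on each of the 12 arrays, by group on the x axis; circle, square and triangle are replicates 1, 2 and 3 and the bar is the group mean. Untreated wildtype arrays stand above most others in the first 7 genes, and Xist is at background on 1 array in each group but untreated wildtype, at 5.63 to 5.76.

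On the negative side no member reached 2-fold, and the untreated knockout group was the highest in 35 of the 44 members with an unadjusted p under 0.05. All members had a median of -0.17, which moved with the normalization, and 87.8% of them were negative. The negative values here and below were not corrected for that offset. A negative difference by its form favours untreated knockout or wildtype LPS as the highest group, and untreated wildtype or knockout LPS as the lowest. The group order of these members is therefore partly set by how they were picked. Caprin2, an RNA-binding protein, read 8.41, 8.46 and 8.36, then 8.72, 8.89 and 8.73 in wildtype cells, and 8.81, 8.79 and 9.09, then 8.43, 8.56 and 8.74 in knockout cells. It was higher with LPS on every wildtype array and lower with LPS on every knockout array, by 0.37 and 0.32 log2 units, and neither change passed the test; the difference was -0.69 (-1.17 to -0.22; adjusted p = 0.749). After quantile normalization the difference was -0.51. Thap11, a zinc finger regulator of transcription, read 8.20, 8.11 and 8.31, then 8.34, 8.01 and 7.88 in wildtype cells, and 8.47, 8.44 and 8.34, then 7.64, 7.65 and 7.68 in knockout cells. It fell in knockout cells by 0.76 (adjusted p = 0.00497), where the groups did not overlap, and stood at -0.13 in wildtype cells.

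Amn1 had the same pattern, with a fall of 0.75 in knockout cells (adjusted p = 0.00323) and -0.14 in wildtype cells (difference -0.62, -1.05 to -0.18). Cep85l, a centrosomal protein, stood at 0.76 in wildtype and 0.13 in knockout cells (difference -0.63, -1.10 to -0.16), since untreated wildtype arrays (8.87, 9.04 and 8.77) lay below all others. Rfxap, a subunit of the factor that drives MHC class II genes, stood at 0.34 and -0.12 (difference -0.47, -0.85 to -0.09). Of these 44 members, 0 were LPS-responsive, and 20 had untreated wildtype as their lowest group. The other named members of this kind were Tspoap1 (-0.65), Pcmt1 (-0.56), Rab35 (-0.55), Zfp511 (-0.46), Ppp1r12c (-0.46), Snhg3 (-0.44) and Tada1 (-0.44), with changes of at most 0.52 log2 units in either genotype.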

How the data were processed

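RNA of 12 samples was measured on Affymetrix whole-transcript arrays. The table that the authors deposited holds log2 signals of each array's probe sets, normalized in steps not given in the sources used here. Per the submitters' processing notes limma was used, in a version they do not name. The arrays' number limits the precision.

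The platform annotation tied 23521 of 34390 probe sets to 1 gene, 1814 to several and 9055 to none; for 1082 genes with several probe sets the one with the highest mean was used. Of 22180 genes, 99.8% were found in a RefSeq table of assembly GRCm38.p6. The fit was limma 3.58.1 in R 4.3.3 (lmFit, contrasts, eBayes; two-sided; Benjamini-Hochberg over all 22180 genes; threshold 0.05), with 1 mean per group and no covariate, on 10 samples with 6 residual degrees of freedom. The 3 untreated wildtype arrays were averaged to 1 sample, whose spread is assumed to equal that of the remaining groups. Pearson correlations of deviations from the group means were taken between arrays of equal replicate number. They were 0.145 to 0.381 in the 3 pairs of groups without untreated wildtype. In the 3 pairs with it they were -0.053 to 0.113, above 0.1 only for replicate 2 with knockout LPS. The main fit has no block, and counts with one are given beside it. The script was tested on simulated data.

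Named genes were Arc, up to 12 members with the smallest p of the difference in each direction (predicted, Riken and small RNA genes left out unless called), the 10 most raised and 8 most lowered responsive members, up to 3 members per list and 3 genes on each side of the limit. The members at or past 2-fold, Plat and Phlda1 were named after their values were seen, as extremes. Members, lists, the averaging and the alternatives were chosen with earlier results of these data known. Alternatives comprised 38 settings, 6 of them added after seeing the data.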

Additional observations from a re-analysis of the deposited data

How the results depend on the processing

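Of 43 named genes, the 24 chosen for a small p kept their sign in all 38 other settings, while 13 of the others did not: Arc (in 13 settings, -0.17 to 0.22), Cxcl10 (in 8, -0.52 to 0.26), Tlr8 (in 6, -0.63 to 0.18), Nfkbiz (in 5, -0.21 to 0.25), Serpinb2 (in 5, -0.68 to 0.14), Arrdc3 (in 3, -0.49 to 0.09), Il23a (in 2, -0.12 to 0.49), Ltf (in 2, -0.05 to 0.75), and in 1 each Acod1 (-1.17 to 0.21), Cd200r1 (-0.87 to 0.03), Ngp (-0.12 to 0.94), Ptgs2 (-0.01 to 0.69) and Rasgef1b (-0.46 to 0.06). The 24 were chosen for a difference that was large for its error, so keeping the sign was largely set by the choice. Some settings, such as 12 samples, also leave the differences themselves unchanged. Array weights were run in 3 versions, one after another, and all are given: weights from the 12 arrays called 151 genes and 13 members for dependence on Arc, weights from the 10 samples 280 and 14, and weights from the 9 samples other than the averaged one 18 and 0. The last was chosen after the counts of the first 2 were seen, and it is also the version closest to the main count of 0, so it carries no extra weight. In the same order these versions called 2300, 2547 and 1595 members for the mean LPS effect (904 in the main fit), 639, 1171 and 413 for LPS in wildtype cells (266) and 3188, 2260 and 2178 in knockout cells (787), and 82.1%, 83.5% and 75.9% of responsive members had an interval within 2-fold (70.3%).

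The 12 arrays as 12 samples gave 55 genes, 4 members, 1956, 1059 and 1187 members and 84.4%. With the replicate number as a block these were 112, 12, 2285, 1341, 1488 and 88.2%, with a block within genotype 122, 15, 2045, 1102, 1229 and 88.7%, with a fixed replicate block on 10 samples, added after seeing the data, 9, 0, 1445, 450, 1343 and 79.7%, and with a random replicate block on 10 samples 0 genes and 0 members were called. Dependence was called for 4 genes with untreated wildtype array 3 in place of the mean, for 2 with a term for arrays of low small RNA signal (79.2%) and for 6 without the arrays with Y-linked signal, with 0 members each.

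Without the arrays of low small RNA signal 452, 53 and 314 members were called for the mean, wildtype and knockout LPS effect, and 53.8% had an interval within 2-fold. With a signal limit of 9, 551 members were called for the mean effect and 456 in knockout cells, with 79.2%. With 12 samples and no arrays with Y-linked signal the counts were 156 genes, 13 members, 2140 for the mean effect, 1406 in wildtype cells and 76.9%; with a term for those arrays 34, 3, 2142, 1024 and 1298 in knockout cells, with 84.4%; and with a term for low small RNA signal 136, 11, 776 in wildtype cells and 89.6%. The cause of these moves was not tested.

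Leaving out 1 array gave 0 to 35 genes and 0 to 2 members for dependence, the upper values without LPS knockout replicate 2, where Zfp972 and Btbd35f1 passed (adjusted p = 0.0489 and 0.0351). It gave 673 to 1032 members for the mean effect, 142 (without LPS wildtype replicate 3) to 308 in wildtype cells, and 387 (without LPS knockout replicate 3) to 915 in knockout cells, where leaving out untreated knockout replicates 1, 2 and 3 gave 455, 456 and 421. The share within 2-fold ran from 64.6% to 73.1%, and the median of LPS-raised members from -0.12 to 0.01; quantile normalization gave 0.06.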
